A study of Homo sapiens with 11 samples.

Results

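Wide H3K27ac domains are long stretches of chromatin marked by acetylation of lysine 27 on histone H3, here called as a single peak in replicate 1. In HK2 cells, 585 of 57521 replicate 1 H3K27ac peaks formed such domains. They were chosen by their width in replicate 1, at least 10 kb, and by an overlap of at least 1 bp with a replicate 2 peak, on chromosomes 1 to 22 and X. Of 588 replicate 1 peaks of that width, 3 met no replicate 2 peak and were left out (nearest to or holding starts of MBNL1, HOATZ and HIF1A). Each domain was given the protein-coding genes with an annotated transcript start inside it, or otherwise the gene with the start nearest to its midpoint.

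HK2 is an immortalised line made from proximal tubule epithelium of human kidney. The cells grew in a DMEM-F12 mixture with 10% FBS and 0.05% DMSO, and every sample came from this single condition, with no treated or control group. ChIP-seq was carried out for H3K27ac, H3K4me3 and H3K27me3 with 2 replicates of each mark, and RNA-seq with 2 libraries. The input DNA and HiChIP samples were not used here. The peak lists held between 28550 and 73450 peaks, with no score or read count for a peak. The study states the depth and the share of reads in peaks of each ChIP library, which was lower in replicate 2 than in replicate 1 of H3K27ac, and the part of this in the widths was not tested.

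H3K27ac is laid down by acetyltransferases such as p300 and CBP at active promoters and enhancers. Enhancers that lie close together can merge into wide acetylated domains, which in many cell types sit near genes of cell identity and signalling. H3K4me3 marks promoters, whereas H3K27me3 is deposited by Polycomb complexes on silenced genes and cannot share a lysine with acetylation.

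Most of the proximal tubule markers looked at were low or absent in the RNA, whereas some markers of kidney lineage and simple epithelia were found. In such bulk RNA, fewer cells of a type and less RNA per cell cannot be told apart. The kidney lineage factor PAX8 had 102 ± 2.79 FPKM (mean ± SD, n = 2 libraries), and KRT8, a keratin of simple epithelia, had 182 ± 3.73 FPKM. GGT1, a brush border enzyme, had 61.1 ± 4.30 FPKM. By contrast, the proximal tubule markers LRP2 and SLC22A6 were listed at 0 in both libraries, and CUBN had 0.0375 ± 0.00579 FPKM. AQP1, ANPEP and SLC5A2, also proximal tubule markers, had 0.205 ± 0.0898, 0.163 ± 0.189 and 1.96 ± 0.565 FPKM. The epithelial cadherin CDH1 had 0.247 ± 0.0520 FPKM. Of the markers of other cell types, WT1, VWF and PTPRC were listed at 0. The fibroblast collagen COL1A1 had 40.1 ± 0.290 FPKM, whereas the other fibroblast markers, PDGFRB and DCN, had 0.813 ± 0.170 and 0.356 ± 0.429 FPKM. FPKM counts fragments per kilobase of transcript scaled to the mapped total of the library, so levels are compared between genes per length.

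The widest domains are shown first by short sequences from their most firmly shared part. In each, the widest replicate 2 peak was searched for the letters TGANTCA, the palindromic site recognised by AP-1 (FOS and JUN family) dimers, and the match nearest the centre of that peak outside exons is given with 45 bases on each side. The 5 stretches are on the plus strand of hg19, 97 bases each, with the match in capitals, and come from 5 of the widest domains in which such a match was found.
UGCG intron, chr9:114663989-114664085: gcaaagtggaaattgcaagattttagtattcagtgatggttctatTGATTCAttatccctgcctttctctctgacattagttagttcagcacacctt
FOXP1 intron, chr3:71553490-71553586: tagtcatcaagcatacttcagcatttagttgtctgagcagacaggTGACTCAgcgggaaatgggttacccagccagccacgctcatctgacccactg
SUSD1 intron, chr9:114809955-114810051: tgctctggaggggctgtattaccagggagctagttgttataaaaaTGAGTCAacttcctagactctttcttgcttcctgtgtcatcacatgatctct
SLC2A1 intron, chr1:43406794-43406890: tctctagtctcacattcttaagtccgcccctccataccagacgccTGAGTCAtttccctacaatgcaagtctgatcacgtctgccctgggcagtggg
TGFB2 intron, chr1:218550847-218550943: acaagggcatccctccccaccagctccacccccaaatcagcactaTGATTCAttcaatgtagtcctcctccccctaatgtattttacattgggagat
The replicate 2 peaks they lie in were between 5248 and 11376 bp wide and held between 2 and 13 matches. The match is a description of the letters and no sign of binding.

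Among 2598 replicate 2 peaks centred in wide domains, 19.7% held TGANTCA within 500 bp around the centre, against 19.1% of 35886 replicate 2 peaks centred elsewhere and 19.2% of all. Over all peaks, the AP-1 letters thus stood in nearly the same share in and out of wide domains. Where peaks with an annotated start within 1 kb of the centre were left out, the share was 20.6% of 2083 inside and 25.1% of 21104 outside. Among the peaks with such a start the order was the other way, with 16.1% of 515 inside and 10.6% of 14782 outside. GGAATG, the letters of TEAD factors, stood in 27.8% of windows inside and 24.98% outside, and away from starts in 28.5% and 28.2%. All letters were searched on both strands. GGGCGG, the GC box of SP and KLF factors, stood in 14.1% of windows inside and 31.9% outside, and away from starts in 9.07% and 11.7%. Of the replicate 2 peaks in wide domains, 80.2% had no annotated start within 1 kb, against 58.8% of those elsewhere, and the median GC content of the windows was 45% against 49.6%.

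For 3 domains with a gene start inside, the promoter is shown as well. The intron stretches above were chosen for holding TGANTCA and the promoters were not, so the letters of both cannot be compared. The sequences are RefSeq promoters (GRCh38.p14 table), found again base for base in the hg19 domain, read 5′ to 3′ along the gene and cut before the first annotated exon. Capitals mark GGGCGG or its reverse complement. FN1 encodes fibronectin, SLC2A1 the glucose transporter GLUT1 and KLF6 a zinc finger transcription factor.
FN1 promoter, chr2:216300797-216301041, minus strand: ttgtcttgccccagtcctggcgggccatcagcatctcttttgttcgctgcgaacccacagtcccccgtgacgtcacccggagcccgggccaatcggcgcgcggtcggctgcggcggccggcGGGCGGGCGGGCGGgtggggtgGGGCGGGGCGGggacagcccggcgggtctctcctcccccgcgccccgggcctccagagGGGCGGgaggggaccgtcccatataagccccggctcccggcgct
SLC2A1 promoter, chr1:43424565-43424789, minus strand: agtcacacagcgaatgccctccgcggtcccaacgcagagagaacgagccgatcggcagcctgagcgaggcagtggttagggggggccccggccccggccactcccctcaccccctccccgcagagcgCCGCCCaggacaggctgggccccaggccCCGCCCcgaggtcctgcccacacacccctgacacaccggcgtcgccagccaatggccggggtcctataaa
KLF6 promoter, chr10:3827474-3827651, minus strand: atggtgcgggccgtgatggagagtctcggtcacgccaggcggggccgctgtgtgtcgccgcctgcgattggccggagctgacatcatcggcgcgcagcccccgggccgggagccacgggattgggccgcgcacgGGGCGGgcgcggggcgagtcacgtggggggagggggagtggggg
None of these held TGANTCA or GGAATG. Of 311 genes with a start in a wide domain, 246 had a promoter of 300 bases in the RefSeq table, and 64.2% of these held GGGCGG, against 59.3% of 15289 protein-coding promoters. The AP-1 letters stood in 6.504% and 5.74%, and the TEAD letters in 17.1% and 11.6%.

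The domains measured between 10008 and 51463 bp with a median of 13251 bp, and covered 9.20 Mb, or 8.59% of all bases under replicate 1 H3K27ac peaks. Of these domains 222 were under 12 kb, 97 reached 20 kb, 28 reached 30 kb and 12 reached 40 kb. Just inside the limit stood the domains given to FIGN (10008 bp), ZBED2 (10010 bp) and AHNAK (10015 bp). Just outside stood the peaks of CAMK1G (9982 bp), RAI14 (9985 bp) and PLCXD2 with PHLDB2 (9987 bp). The widths thus ran on across the limit without a gap.

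The widest domain (51463 bp, chr9:114657329-114708791) held the start and whole body of UGCG, the glucosylceramide synthase that begins glycosphingolipid synthesis. FOXP1, a forkhead transcription factor, followed with 51074 bp (chr3:71544163-71595236), and PLCB4, a phospholipase C that acts downstream of G protein-coupled receptors, with 50416 bp (chr20:9028860-9079275). The domain of SLC2A1 measured 46583 bp (chr1:43388734-43435316). That of CFLAR, which encodes the caspase-8 inhibitor c-FLIP, measured 45420 bp (chr2:201979413-202024832). Secreted growth factors were represented by TGFB2 (44820 bp, chr1:218516971-218561790) and PDGFC (42919 bp, chr4:157851480-157894398), and the cytoskeleton by MYH9, the heavy chain of non-muscle myosin IIA (40797 bp, chr22:36745478-36786274). The remaining members of the 10 widest had no protein-coding start inside. A domain of 48315 bp (chr9:114768451-114816765) lay partly in SUSD1, and a domain of 42298 bp (chr5:148343079-148385376) lay within SH3TC2, a gene known for its role in myelinating Schwann cells.

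The genes of the widest domains were not the most highly expressed genes of the cells. UGCG had 115 and 120 FPKM in libraries 1 and 2, FOXP1 14.99 and 15.2, PLCB4 39.4 and 42.5, SLC2A1 82.4 and 79.4, and CFLAR 44.3 and 38.9. TGFB2 had 27.9 FPKM in each library, PDGFC 39.1 and 40.3, and MYH9 568 and 559. SH3TC2 had 0.721 and 1.01 FPKM, so the 42.3 kb domain inside it lay in a gene at the limit of 1 FPKM taken here as expressed. The libraries lay close together for each of these genes, and MYH9 alone was above 500 FPKM.

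**Figure D1:**
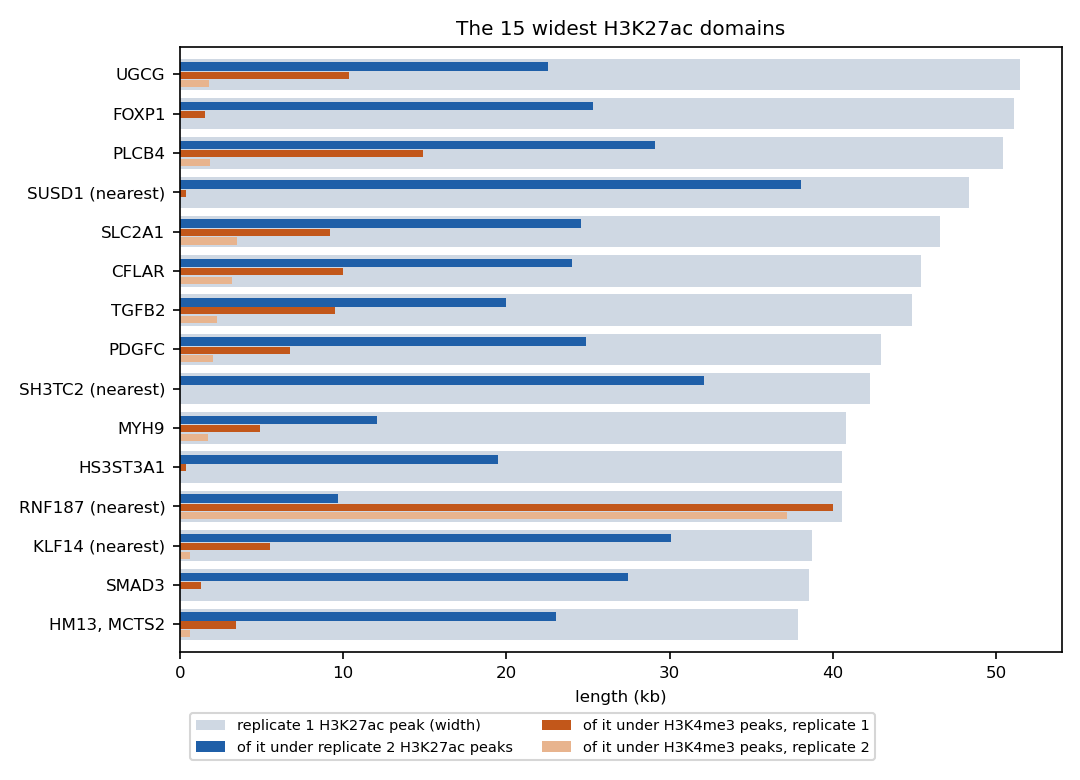
Horizontal bars give, for the 15 widest H3K27ac domains, the width in replicate 1 in kb (grey) and the length of it under replicate 2 H3K27ac peaks (blue) and under H3K4me3 peaks of replicates 1 and 2 (orange tones); domains with no protein-coding start inside carry the nearest gene. UGCG stands at the top with 51463 bp, and the domain nearest to RNF187 is the only bar of the 15 filled with H3K4me3, at 98.7% and 91.7%.

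The second H3K27ac replicate, whose width the choice did not use, covered a median of 56.7% of a domain (lowest 6.09%, highest 98.6%). Narrower peaks are given below only where they also met a replicate 2 peak, and in these the same cover was 50.8% in peaks of 5 to under 10 kb, 49.9% in those of 2 to under 5 kb and 44.8% in those under 2 kb. The replicate 2 list was made of narrower peaks, with a median width of 658 bp against 1359 bp and 34 peaks of at least 10 kb against 588. A domain was therefore broken into a median of 4 replicate 2 peaks, with up to 19, and 34 domains met a replicate 2 peak of at least 10 kb. With 1 peak list per replicate, no test over samples exists for these shares, and regions and genes are not replicates, so values are given beside those of all peaks or all genes without a test.

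Cover of at least 50% was reached by 357 domains, and 44 domains were covered by less than 25%. The best covered domains were those nearest to DAW1 (98.6%) and CYP24A1 (97.5%), the latter encoding the vitamin D 24-hydroxylase of the kidney tubule, followed by the domain of EVC (97.4%), that of ID1 (96.9%), an inhibitor of DNA binding, and that nearest to GPAT3 (94.99%). The least covered were those of LATS2, a kinase of the Hippo pathway (6.09%), SLC35F4 (6.59%), FNDC3B (6.89%), GTF2F2 (7.31%) and GALNT7 (7.48%). Each of these last 5 rested on 1 or 2 small replicate 2 peaks, and their width was a reading of replicate 1. Among the widest domains, LIF, a cytokine of the interleukin-6 family, stood out with 94.7% of its 37.1 kb under 5 replicate 2 peaks.

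H3K4me3 covered only a small part of the wide domains. A peak of this mark was found in 74.0% of domains in replicate 1 and in 34.9% in replicate 2, and 201 domains (34.4%) had a peak in both, against 24.4% of all replicate 1 H3K27ac peaks and 42.1% of the 25372 that met a replicate 2 peak. The share with both was lower than in peaks under 2 kb (44.7%) and of 2 to under 5 kb (42.7%), and near that of peaks of 5 to under 10 kb (30.5%). In replicate 1 alone the order was the other way, with 55.8%, 63.9% and 63.3% in the narrower classes and 74.0% in wide domains. By bases, H3K4me3 lay on 17.2% of the domains in replicate 1 and 5.68% in replicate 2, against 49.7% and 35.9% in peaks under 2 kb. In both H3K4me3 replicates the covered share of bases was smaller in each wider class. Such a share falls with width where the covered length stays the same, so it does not show less H3K4me3 per peak.

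H3K4me3 in both replicates went with the gene starts. Of 291 domains with a protein-coding start inside, 181 had H3K4me3 in both replicates, and of 294 without a start, 20 did. By replicate, the shares with and without a start were 83.8% and 64.3% in replicate 1, and 63.2% and 6.80% in replicate 2. Narrower peaks were split as well, with 92.3% and 13.1% in both replicates for peaks under 2 kb. As many as 149 domains had H3K4me3 in neither replicate, 44 of them with an annotated start inside. At least 50% of the domain was under H3K4me3 in 69 domains in replicate 1 and in 5 in replicate 2. MYC had 65.3% and 55.3% of a 10.1 kb domain under H3K4me3. PAX8 had 0.846% and 1.498% of an 18.4 kb domain, and WWTR1, which encodes the Hippo effector TAZ, had 3.22% and 0% of the widest of its domains, 19.5 kb.

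**Figure D2:**
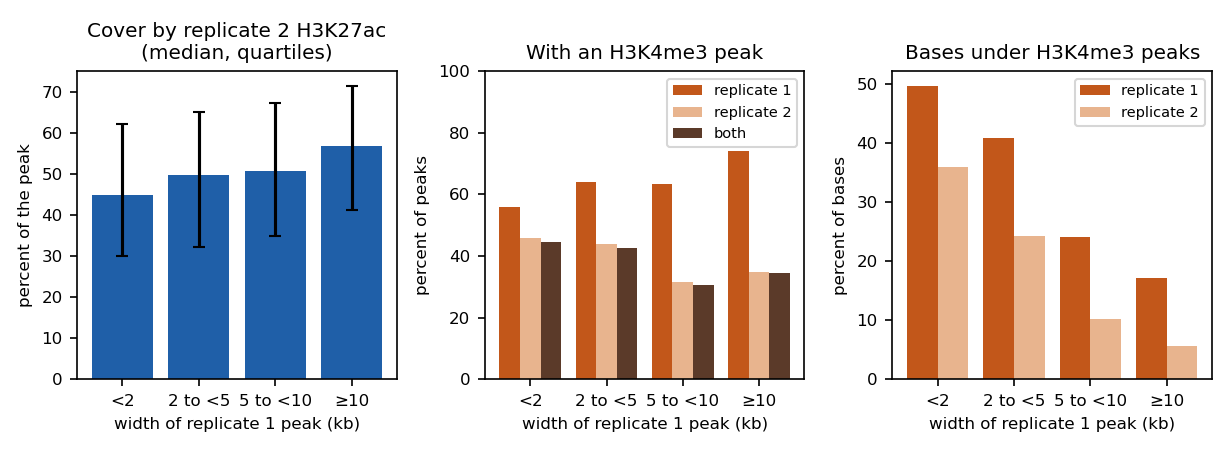
The panels compare replicate 1 H3K27ac peaks that meet a replicate 2 peak, in 4 classes of width in kb. They give the median percent of a peak under replicate 2 H3K27ac peaks with quartiles as error bars, the percent of peaks with an H3K4me3 peak, and the percent of bases under H3K4me3 peaks. The median cover is 44.8% in the narrowest class and 56.7% in wide domains, and the bases under H3K4me3 are 49.7% and 17.2% for replicate 1, 35.9% and 5.68% for replicate 2.

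A single region differed from the rest. The 40.5 kb domain at chr1:228744123-228784664, between protein-coding genes with RNF187 nearest, held 17 annotated ribosomal RNA genes. H3K4me3 lay on 98.7% of it in replicate 1 and 91.7% in replicate 2, and its GC content was 67.2%, whereas the median over domains was 43.2%. Replicate 2 H3K27ac covered 23.9% of it in 19 pieces, the largest number in any domain. Reads of near-identical gene copies cannot be placed with certainty, so the values of this domain are uncertain.

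H3K27me3 was almost absent. In both replicates a peak was found in 1 domain (0.171%), against 0.346% of all replicate 1 H3K27ac peaks and 0.150% of those that met a replicate 2 peak. It lay in the 13.4 kb domain nearest to PPARA, the fatty acid oxidation regulator, where 434 bp were shared by both H3K27me3 replicates. The domain of IGF2BP3 (12.2 kb) had 598 bp of H3K27me3 in replicate 2 only. A single domain gives no basis to set the share above or below that of other peaks.

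A protein-coding start lay inside 291 domains (49.7%), against 23.7% of all replicate 1 peaks, 41.5% of those that met a replicate 2 peak and 36.9% of peaks of 5 to under 10 kb. Where the 5′ end of the gene alone was counted and not every annotated transcript start, 163 domains (27.9%) held one, against 16.3% of all peaks. Wider regions hold more of any feature, and per 10 kb the domains held 0.368 genes, against 3.18 in peaks under 2 kb. A single gene started in 253 domains, 2 genes in 30 and 3 or more in 8. The most, 4 genes, started in a 27.4 kb domain of the HOXA cluster (chr7:27193311-27220756), which held HOXA7, HOXA9, HOXA10 and ENSG00000257184 and of which 84.5% and 51.4% was under H3K4me3. It was followed by the domain of FIBP, CCDC85B and FOSL1 (18149 bp) and that of MRPL24, HDGF and PRCC (12716 bp).

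The domains reached into genes more than upstream of them. In 136 domains that held the 5′ end of a single gene, a median of 9.54 kb lay downstream of that end and 2.74 kb upstream, and the downstream part was the longer in 110 (80.9%). The same was seen in 75% of 440 peaks of 5 to under 10 kb. Of the 294 domains without a start, 158 lay within a protein-coding gene, 10 partly within 1 and 126 between genes. The genes were long, with a median length of 58.1 kb for those with a start inside and 116 kb for those that were only nearest, against 27.3 kb over all protein-coding genes and 35.6 kb for genes whose widest start-holding peak had 5 to under 10 kb. The part of gene length in the choice of a nearest gene was not tested.

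The 5 widest domains without a start were those of SUSD1 and SH3TC2, the ribosomal RNA region, and domains between genes of 38707 bp (chr7:130565508-130604214) and 35656 bp (chr21:44911663-44947318). Their nearest genes were KLF14, a transcription factor of the KLF family at 0.0292 and 0 FPKM, and H2BC12L, a histone gene copy at 0.228 and 0.702 FPKM. In 38 domains the nearest start was over 200 kb from the midpoint, and the farthest, on chromosome X, lay 606 kb from a start of DIPK2B. Of the 30 genes nearest to such remote domains, 73.3% were expressed, with medians of 6.69 and 9.65 FPKM in the 2 libraries, whereas the medians were 17.8 and 19.7 FPKM for genes within 20 kb, 21.97 and 22.6 for those at 20 to 100 kb and 16.2 and 16.01 for those at 100 to 200 kb. H3K4me3 was found in 39.5% of the remote domains in replicate 1 and in 0% in replicate 2.

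Some wide domains stood close together, but most did not. With gaps of up to 50 kb joined, 204 domains fell into 85 groups and 381 stood alone. The same grouping was not run for narrower peaks, so no background share stands beside these counts. TRIO, an exchange factor for small GTPases, had 5 domains within 133 kb (chr5:14140395-14273607). The group of UGCG and SUSD1 took 183 kb with 4 domains that covered 79.1% of it, and PTPN14, a phosphatase that restrains the Hippo effector YAP, had 4 nearest domains in 89.1 kb, 82.3% covered. PARD3, a cell polarity gene, had 4 in 124 kb. TRIO had 70.6 and 94.5, PTPN14 52.9 and 52.5, and PARD3 38.5 and 39.4. The 106 measured genes of 2 or more domains had a median of 33.3 FPKM, and the 376 genes of 1 domain had 18.1 FPKM.

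**Figure D3:**
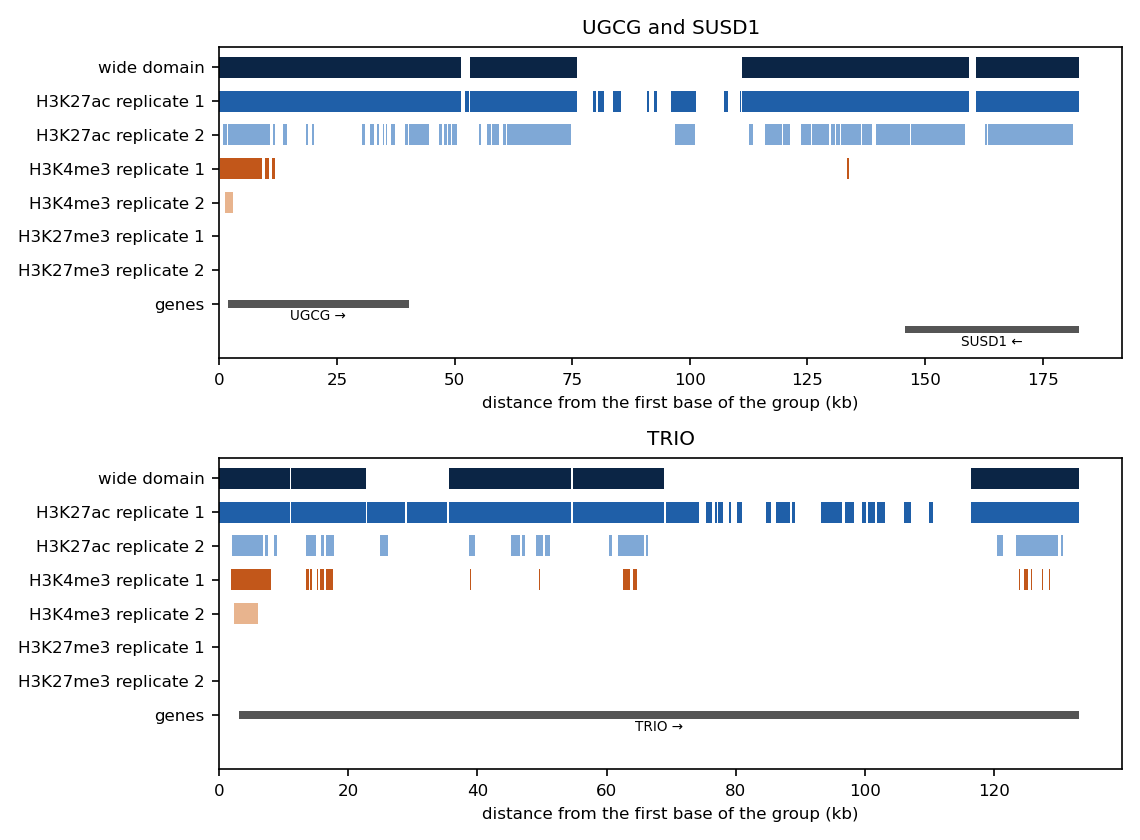
Bars show wide domains, peaks of each mark and replicate, and protein-coding genes with their direction in the UGCG and SUSD1 group (183 kb) and the TRIO group (133 kb), in kb from the first base of each group. Replicate 2 H3K27ac breaks each domain into pieces, the longest H3K4me3 stretch of the TRIO group lies over the start of that gene, and no H3K27me3 peak falls in either group.

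By chromosome, domains ranged from 0.708 per 10 Mb on X to 3.72 on chromosome 19. As a share of replicate 1 H3K27ac peaks, chromosome 21 had the highest value (14 domains, 2.02% of its peaks), and chromosome 16 the lowest (11 domains, 0.587%), followed by X (0.629%).

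The genes of wide domains were highly expressed. Of 486 genes, 482 had an FPKM value, and 88.8% of these reached 1 FPKM in both libraries, against 58.9% of 19600 protein-coding genes. Their median was 20.5 FPKM in library 1 and 21.8 in library 2, and that of all protein-coding genes was 3.27 and 3.39. The 308 measured genes with a start inside had medians of 27.9 and 28.3 FPKM with 92.9% expressed, and the 174 that were only nearest had 11.9 and 12.7 FPKM with 81.6% expressed. Among the 1960 genes of highest FPKM, by definition 10% of all, were 181 genes of wide domains (37.6%), which made up 9.23% of that group.

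Medians were higher with the width of the peak at the start in each library. Genes whose widest start-holding peak was under 2 kb had medians of 8.54 and 8.52 FPKM, those of 2 to under 5 kb 12.1 and 12.3, those of 5 to under 10 kb 16.9 and 17.4, and those with no such peak 0.0165 and 0.0152. Within the wide domains the order went on, with 20.4 and 22.1 FPKM for domains of 10 to under 15 kb (187 genes), 36.8 and 41.7 for 15 to under 20 kb (58 genes) and 45.5 and 47.5 for 20 kb or more (63 genes). Among genes with a start inside, the share expressed changed less. It was 88.5%, 92.2%, 92.4% and 92.9% from the narrowest to the widest class. These classes thus differed in level rather than in how many genes were on. The nearest genes of peaks without a start had the same order. Their medians went from 3.89 and 3.98 FPKM under 2 kb to 17.2 and 18.9 at 10 kb or more. In these classes the share expressed differed too, with 63.2%, 71.2%, 78.1% and 86.0%. Some genes of the widest class also had a start inside another wide domain. The 174 that were only nearest had 11.9 and 12.7 FPKM, against 9.25 and 9.67 at 5 to under 10 kb. The narrower classes were not split in this way. With widths taken from replicate 2, which did not set the domains, the order was the same, from 11.6 and 11.9 FPKM under 2 kb (6994 genes) to 50.6 and 46.8 at 10 kb or more (17 genes).

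**Figure D4:**
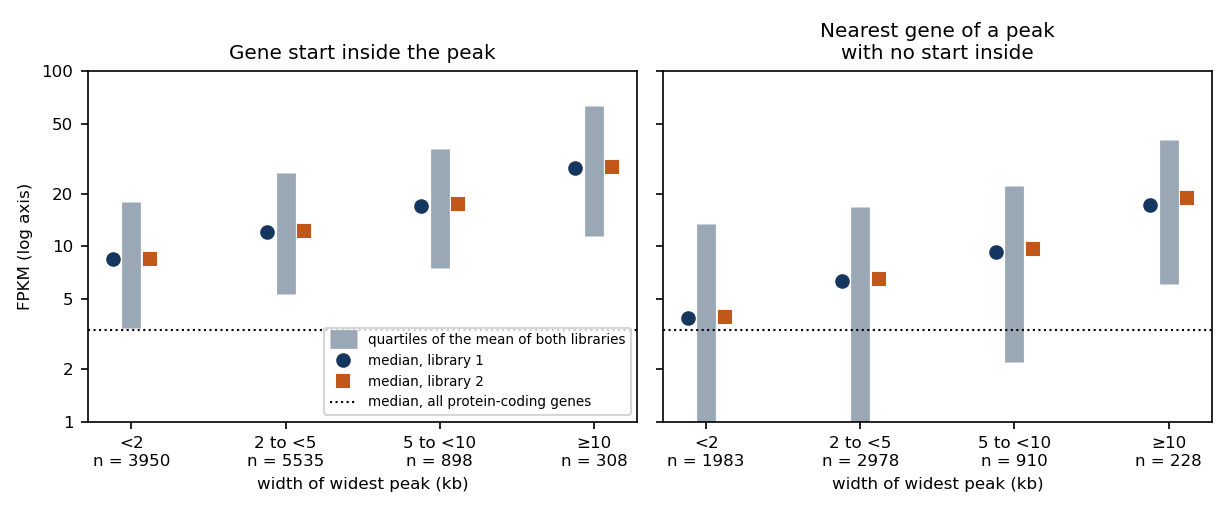
Points give the median FPKM of protein-coding genes in library 1 (circles) and library 2 (squares) by the width in kb of the widest H3K27ac peak, grey bars the quartiles of the mean of both libraries, and the dotted line the median of all protein-coding genes, on a log axis that starts at 1 FPKM. With a start inside, the medians go from 8.54 and 8.52 FPKM to 27.9 and 28.3 FPKM. For nearest genes they go from 3.89 and 3.98 to 17.2 and 18.9 FPKM. Nearest genes of the widest class include some with a start inside another wide domain.

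Medians differed with H3K4me3 as well. The 217 genes that started in domains with H3K4me3 in both replicates had medians of 35.3 and 37.8 FPKM, and the 43 in domains with H3K4me3 in neither had 15.4 and 16.9 FPKM, of which 83.7% were expressed. The part of the domain under replicate 2 H3K27ac went with a smaller gap, with 33.5 and 34.0 FPKM at cover of at least 50% and 26.8 and 27.1 FPKM below it.

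Of the genes with a start inside, FN1 had the highest FPKM, 2333 and 2343 FPKM in the 2 libraries. ENO1 and PGAM1, enzymes of glycolysis, had 1947 and 1867, and 733 and 722. MT2A, a metallothionein that binds zinc and copper, had 1700 and 1684. CCN1, a secreted matricellular protein and target of YAP, had 814 and 790. PFN1, FLNA, TPM1 and MYH9 build and contract actin filaments and had means of 753 ± 6.74, 720 ± 26.96, 625 ± 34.4 and 563 ± 6.55 FPKM (SD, n = 2). TGFBI, an extracellular protein induced by TGF-beta, had 689 ± 7.28 FPKM. These genes had domains of 10.5 to 40.8 kb, and FN1, the highest, had its start in a domain of 10954 bp near the lower limit.

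At the other end, 22 of the 308 genes were not expressed in both libraries. ENSG00000235007 and ENSG00000259132 were listed at 0, ENSG00000260851 had 0.0163 ± 0.0169 FPKM, MUC22, a mucin gene, 0.0461 ± 0.0269, and CCDC197 0.0938 ± 0.0842. The domains of these 5 measured 10.2 to 11.7 kb. Others, named after their values were seen, had wider domains: ZPLD1 in 34.1 kb with 0.294 and 0.388 FPKM, and UPK2, which encodes a uroplakin of the urothelium, in 19.2 kb with 0.138 and 0.0877 FPKM. Some of these genes shared their domain with an expressed gene. The domain of UPK2 also held a start of BCL9L, at 19.7 and 19.1 FPKM. That of ENSG00000259132 also held a start of AJUBA, at 33.0 and 35.3 FPKM. PSG2, PSG4, PSG7 and PSG11, pregnancy-specific glycoprotein genes next to each other on chromosome 19, had means of 0.177 to 0.463 FPKM. They are near-identical copies, so the reads assigned to each are uncertain. ENSG00000257184, which shares the HOXA domain, had 20.6 FPKM in library 1 and 0.579 in library 2, and MYC had 5.75 and 50.4, so neither level could be set from these libraries.

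A start inside a domain did not always carry the transcript. Among 207 expressed genes with annotated starts both inside and outside their domains, a median of 56.7% of FPKM in library 1 and 52.4% in library 2 was assigned to transcripts that started inside. In 59 genes at least 90% came from inside in both libraries, for example TGFB2 (100% in each), MYH9 (99.0% and 99.3%) and PDGFC (97.5% and 95.2%). In 51 genes under 10% did, as for ACTN1, an actin crosslinker (0.0308% and 0.00602%), and MET, the receptor of hepatocyte growth factor (0.342% and 0.373%). TGFBI (7.85% and 7.61%) and WWTR1 (2.72% and 2.42%) were also among these. PAX8 lay between, with 16.7% in both libraries. In such genes the domain lay at a start that was annotated but little used, or inside the transcribed body. The transcript shares are estimates of the quantification, made on the annotation of the study.

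Gene lists of pathways and cell functions differed in how many of their members had a wide domain. Over all measured protein-coding genes, 2.46% were genes of a wide domain. The actin cytoskeleton and focal adhesion list had 10 of 18 members, 6 with a start inside. FLNA, TPM1 and MYH9 have been given above, and TAGLN2, a transgelin, had 350 ± 29.6 FPKM and an 11.4 kb domain. ACTB and ACTG1, the cytoplasmic actins, had 1869 ± 4.06 and 1126 ± 39.96 FPKM with start-holding peaks of 7.30 and 8.58 kb, below the limit, as did TPM4 (350 ± 1.36 FPKM, 6.25 kb).

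Integrins and matrix had 8 of 18 members, all with a start inside. FN1 and TGFBI were followed by COL4A2 and COL4A1, the paired chains of basement membrane collagen IV, with 379 ± 5.55 and 333 ± 5.97 FPKM in a shared domain of 11.8 kb. Not among them were THBS1 (152 ± 2.50 FPKM, 6.92 kb) and ITGAV (64.5 ± 8.69 FPKM, 3.91 kb). The YAP and TEAD list had 7 of 14 members, led by CCN1, AXL, a receptor tyrosine kinase (99.4 ± 2.32 FPKM), WWTR1 (75.5 ± 5.73 FPKM, 3 domains) and AMOTL2, which binds YAP (60.6 ± 9.93 FPKM, 3 domains). CCN2, a close relative of CCN1, had 170 ± 4.72 FPKM and a peak of 7.53 kb, and YAP1 and ANKRD1 had peaks of 4.12 and 7.32 kb.

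The AP-1 and early response list had 6 of 16 members. FOSL2, JUNB and FOSL1 encode AP-1 subunits and had starts in domains of 26.96, 15.1 and 18.1 kb, with 55.6 ± 0.740, 47.0 ± 2.17 and 24.3 ± 1.23 FPKM. IER3, an early response gene with 145 ± 15.1 FPKM, was nearest to a domain, and KLF6 had 4 domains and 28.9 ± 1.11 FPKM. JUN, with the highest FPKM of the list members without a domain (87.4 ± 3.31), had a start-holding peak of 4.85 kb, and JUND (60.2 ± 2.48 FPKM) had 4.32 kb. KLF10, an early response factor induced by TGF-beta, had 24.9 ± 10.5 FPKM and 5.85 kb. The receptor kinase and ligand list had 4 of 10 members, with starts of MET and LIF inside and EPHA2 and EGFR nearest. LIF had 36.4 and 32.7 FPKM and 3 domains, and MET 46.1 and 51.6 FPKM and 3 domains. Without one were HBEGF (43.4 ± 0.394 FPKM, 6.49 kb), AREG (42.8 ± 0.329 FPKM) and EREG (32.6 ± 2.66 FPKM, 7.38 kb), ligands of the EGF receptor family. AREGB, a near-identical copy of AREG in hg19 that has no FPKM value, was nearest to 3 wide domains of 50.4 kb in all, so the place of AREG among genes without a domain is uncertain.

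Of the nephron lineage transcription factors 2 of 15 had a wide domain, among them PAX8, which had the highest FPKM of the list. LHX1, with 61.0 ± 1.25 FPKM, had a peak of 4.96 kb, and TFAP2A (3.53 ± 0.0166 FPKM) had one of 4.32 kb. SALL1 (2.82 ± 0.0306 FPKM) and PAX2 (0.386 ± 0.0200 FPKM) had no start in an H3K27ac peak shared by the replicates. The proximal tubule transporter list had 1 of 16 members, the bicarbonate cotransporter SLC4A4 (13.4 ± 0.813 FPKM), as the nearest gene of a domain within it. GGT1, DAB2 and MME, the most highly expressed of the others at 61.1 ± 4.30, 11.8 ± 0.259 and 8.13 ± 0.256 FPKM, had none. Keratins had 1 of 6 (KRT80, 31.0 ± 1.34 FPKM), and KRT8 and KRT19, at 182 ± 3.73 and 123 ± 0.187 FPKM, had peaks of 4.39 and 5.66 kb, as did KRT18 (56.1 ± 16.9 FPKM) with 2.18 kb.

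Other lists had few members with a wide domain or none. Beside the 2.46% of all measured protein-coding genes, lists this short cannot show a lack of wide domains. Of 12 NF-kB and cytokine genes only the chemokine CXCL8 (59.9 ± 4.27 FPKM) was the nearest gene of domains, 2 in number, and of 10 cell cycle genes only CDK6 (14.8 ± 1.27 FPKM), which was nearest to 3. None of 9 NRF2 targets had one, although SQSTM1 and TXNRD1 had 200 ± 47.0 and 154 ± 10.7 FPKM, nor did any of 10 genes that write, read or erase acetylation, of which the deacetylase HDAC1 (109 ± 0.838 FPKM) and the reader BRD2 (75.9 ± 2.38 FPKM) had peaks of 2.64 and 6.72 kb. The 14 cytosolic ribosomal protein genes had a median of 789 FPKM, far above that of domain genes, and their start-holding peaks measured between 2.34 and 8.11 kb, so none had a wide domain. Of 16 HOX genes, HOXA9 (142 ± 15.7 FPKM) and HOXA10 (33.8 ± 7.10 FPKM), or 12.5% of the list, started in the shared HOXA domain. HOXA3, HOXA4 and HOXA7, which the list left out, were also genes of wide domains in that cluster.

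**Figure D5:**
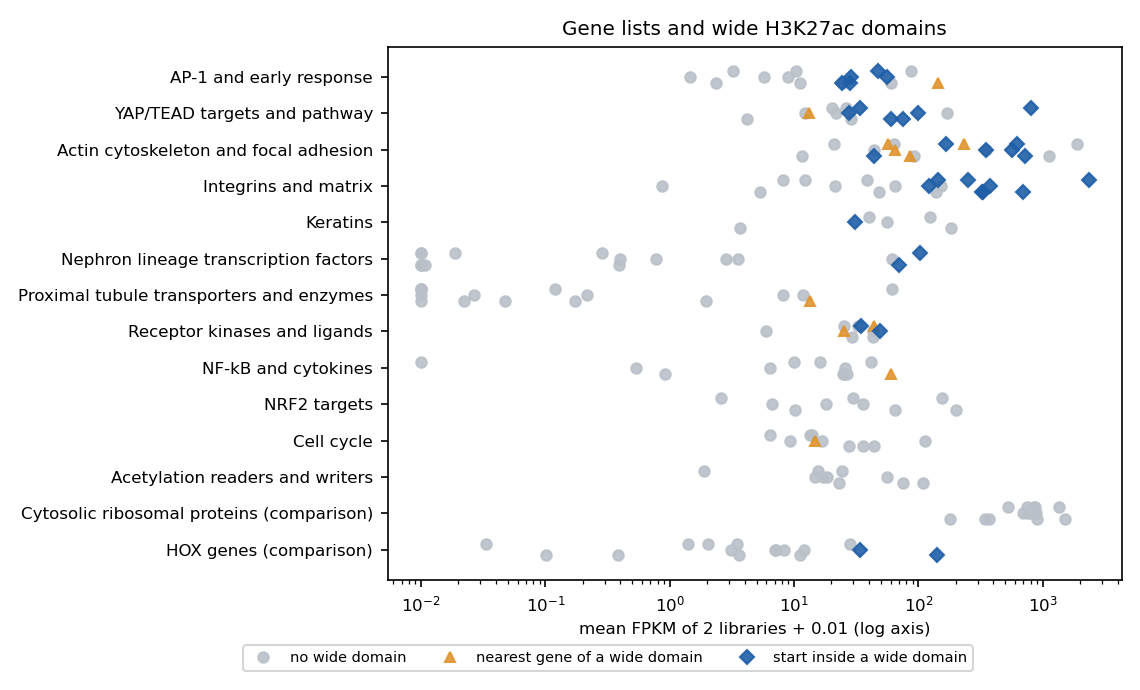
Each point is a gene, placed by its mean FPKM over 2 libraries plus 0.01 on a log axis and by its list; diamonds mark genes with a start inside a wide domain, triangles nearest genes, and grey circles genes of no wide domain. The actin, matrix, YAP and AP-1 lists hold most diamonds, while the ribosomal protein genes, with a median of 789 FPKM, are all grey.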

How the data were processed

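H3K27ac, H3K4me3 and H3K27me3 were profiled by ChIP-seq with 2 replicates a mark, and RNA with 2 libraries, in HK2 cells of a single condition. The authors aligned ChIP reads to hg19 with Bowtie2, called peaks in each replicate with MACS2 and deposited peak positions without a score or read count. The authors deposited FPKM and TPM values for each transcript, made with HISAT2 and StringTie 1.3.3. The file headers name GENCODE v27 and the coordinates are those of GRCh38, whereas the methods of the study name hg19 for this mapping.

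Transcript FPKM were summed to genes and joined by Ensembl identifier to gene models of GENCODE v44 lifted to GRCh37 (the assembly of hg19), so no coordinate was carried between builds. BED starts were raised by 1. Peaks were compared by overlap of at least 1 bp, and a gene was called expressed at 1 FPKM in both libraries. No test over samples was possible, so values are given per replicate or with SD. Exact (Clopper-Pearson) intervals of 95% for shares cover counting error only and served the comparison of alternatives. Calculations used Python 3.11.15, numpy 2.4.6, pandas 2.3.3, pysam 0.24.0, scipy 1.17.1, matplotlib 3.10.9 and samtools 1.23.1, and the interval code was tested on simulated lists.

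The domains and gene lists were chosen with earlier results of these data known. Genes and domains named are the 10 widest domains; the 3 on either side of the limit; the 10 highest and 5 lowest genes by FPKM with a start inside; the 5 widest domains without a start; the 5 best and 5 least covered by replicate 2; those with H3K27me3; the 3 with most genes; and up to 4 list members with and 3 without a domain, by FPKM. Other genes were named after their values were seen. Alternatives were other widths, overlaps, replicates, units and pseudocounts. The input and HiChIP samples were not used here. Some genes and sequences are not reported here.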

Additional observations from a re-analysis of the deposited data

How the results depend on the processing

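The limit of a move was 1.5-fold for the number of domains and the counting interval for shares. For cover by replicate 2 it was the SD over domains, and for expression the SD of the 2 libraries. Of 40 alternatives, 15 kept a value within its limit and 25 moved it further. These cover the value in wide domains and not its order against other peaks, which changed for H3K4me3 (34.4% against 44.7% in peaks under 2 kb, but 74.0% against 55.8% in replicate 1 alone) and TGANTCA (19.7% against 19.1% outside, but 20.6% against 25.1% away from starts). The number of domains, 585, was 2958 at a width of at least 5 kb, 217 at 15 kb and 357 with cover by replicate 2 of at least 50%. Where replicate 2 peaks were joined over gaps of up to 1 kb, 160 joined peaks reached the width. Without 1 of the H3K27ac replicates, 34 to 588 peaks reached it, the lower value without replicate 1. The width of the domains thus rests on replicate 1. The share with H3K4me3, 34.4%, was 74.5% for either replicate and 34.9% to 74.0% without 1 of them, the higher value without replicate 2. The share with H3K27me3 was 0% at 15 kb and 0.171% to 0.342% without 1 replicate. The share with a start was 27.9% by the 5′ end of the gene alone, 39.5% at 5 kb and 54.4% at 15 kb. The difference in mean log10(FPKM + 1) between domain genes and the other protein-coding genes, 0.636, was 0.632 to 0.637 without 1 of the RNA libraries, 0.765 with TPM, 0.423 for genes of at least 0.1 FPKM, 0.912 with a pseudocount of 0.1, 0.773 for genes with a start inside, 0.394 for nearest genes, 0.659 with 50% cover, 0.485 at 5 kb and 0.782 at 15 kb. The same difference between start-holding peaks of at least 10 kb and of 5 to under 10 kb, 0.170, was 0.168 to 0.171 without 1 library, 0.176 with TPM, 0.179 with the smaller pseudocount and 0.289 with widths from replicate 2 (17 and 136 genes). The share of peaks with TGANTCA was 12.6% in windows of 300 bp. The cause of these shifts was not tested beyond what each setting changes by itself. No paired analysis was possible because no result comes from a test and the groups with the same numbers are different assays of 1 condition. The peak lists give no read counts, so a missing peak does not show that a mark is absent.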
